A study of Homo sapiens with 12 samples.

Results

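The map of H3K27ac against H3K4me1 in choline-free Huh7 cells was built from the 2 ChIP-seq summit lists made at 0 µM choline. It held 37946 H3K27ac summits and 343156 H3K4me1 summits on chromosomes 1 to 22 and X, 381102 in all, of 759609 summits in the 4 lists analysed for both doses. A summit is the position at which the peak caller placed the greatest enrichment of a peak. Membership followed from the dose and the chromosome alone, and each summit was then classed by whether a summit of the other mark lay within 1 kb.

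Huh7 is a human hepatocellular carcinoma line. The cells were wild type and were kept for 48 h in a custom DMEM lacking choline chloride, in which B-27 took the place of 10% FBS. The H3K27ac antibody was Active Motif 39133 and the H3K4me1 antibody was Cell Signaling Technology 5326S, and each mark had an input sample of its own, not analysed here. The other lists used below came from cells in the same medium with 15 µM choline for 48 h. Of the 12 samples in the series, 8 were not analysed here. Each mark and dose had 1 library, so no value below carries a replicate spread or a p-value, and a difference between marks cannot be told apart from a difference between the antibodies, the libraries and the peak calls.

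H3K4me1 is monomethylation of lysine 4 of histone H3, laid down mainly by KMT2C and KMT2D, and it is found over enhancers and on the flanks of promoters. At the start of an active promoter it gives way to H3K4me3, so the monomethyl mark usually dips there. H3K27ac is acetylation of lysine 27, laid down by EP300 and CREBBP, and it marks active promoters and active enhancers. By common usage a distal place with both marks is called an active enhancer, and one with H3K4me1 alone a primed or poised enhancer. The lists hold positions and scores and no other mark, so these names are not given to single places below.

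The label of the cell line was compared with marker genes. All 21 hepatocyte and Huh7 markers had H3K27ac summits within 50 kb of either gene end, from 1 to 40 with a median of 12. Of these markers, 14 had one within 1 kb of the start. Every 50 kb window below was taken from the gene ends in this way. The part of a long gene over 50 kb from both ends was therefore not counted. Of 24 markers of blood, endothelial, stellate or fibroblast, neuronal and muscle cells, 2 had H3K27ac at the start and 12 had none within 50 kb. Of 4 cholangiocyte markers, 1 had H3K27ac at the start and 2 had none within 50 kb. Over all 19974 protein-coding genes, 27.2% had H3K27ac at the start and 35.0% had none within 50 kb. The 3 muscle markers MYOD1, DES and ACTA1 had 0 H3K27ac summits in their windows.

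The promoters printed here are those of leading genes by score, with a listed start, in the 3 gene classes described below. COX20 and ZDHHC5 lead the genes with both marks by H3K27ac score. FGG and SMC2 are among those with H3K27ac only, and AVPR1B and ZC3H10 among those with H3K4me1 only. ALB and KLF5 were added as the albumin gene and the transcription factor named in the title of the study. Each line gives the 250 bases before the start, 5′ to 3′ on the gene's strand, from RefSeq on GRCh38.p14, with each CG dinucleotide in capitals. The positions are chr1:244835226-244835475 (+ strand) for COX20, chr11:57667864-57668113 (+ strand) for ZDHHC5, chr4:154612657-154612906 (- strand) for FGG and chr9:104094059-104094308 (+ strand) for SMC2. The other positions are chr1:206117389-206117638 (- strand) for AVPR1B, chr12:56118016-56118265 (+ strand) for ZC3H10, chr4:73404037-73404286 (+ strand) for ALB and chr13:73054726-73054975 (+ strand) for KLF5.
COX20: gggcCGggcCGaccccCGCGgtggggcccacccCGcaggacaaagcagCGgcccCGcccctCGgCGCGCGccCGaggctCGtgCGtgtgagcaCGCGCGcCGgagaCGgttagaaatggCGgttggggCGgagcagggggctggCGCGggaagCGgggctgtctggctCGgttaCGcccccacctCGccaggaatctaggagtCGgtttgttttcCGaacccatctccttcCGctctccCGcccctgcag
ZDHHC5: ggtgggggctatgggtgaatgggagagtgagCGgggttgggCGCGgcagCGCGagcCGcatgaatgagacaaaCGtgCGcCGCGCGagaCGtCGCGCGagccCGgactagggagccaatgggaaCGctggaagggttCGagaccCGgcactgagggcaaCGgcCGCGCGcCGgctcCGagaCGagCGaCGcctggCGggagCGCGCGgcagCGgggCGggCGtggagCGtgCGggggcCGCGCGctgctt
FGG: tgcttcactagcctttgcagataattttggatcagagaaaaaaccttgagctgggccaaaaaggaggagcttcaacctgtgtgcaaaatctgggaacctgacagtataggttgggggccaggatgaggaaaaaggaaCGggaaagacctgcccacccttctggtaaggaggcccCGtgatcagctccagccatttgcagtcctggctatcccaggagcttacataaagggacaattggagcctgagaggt
SMC2: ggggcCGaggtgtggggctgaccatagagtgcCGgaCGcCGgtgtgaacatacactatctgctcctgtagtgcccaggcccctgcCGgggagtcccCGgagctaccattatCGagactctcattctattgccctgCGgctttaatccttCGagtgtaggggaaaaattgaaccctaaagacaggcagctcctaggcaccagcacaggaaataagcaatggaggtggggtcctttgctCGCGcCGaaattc
AVPR1B: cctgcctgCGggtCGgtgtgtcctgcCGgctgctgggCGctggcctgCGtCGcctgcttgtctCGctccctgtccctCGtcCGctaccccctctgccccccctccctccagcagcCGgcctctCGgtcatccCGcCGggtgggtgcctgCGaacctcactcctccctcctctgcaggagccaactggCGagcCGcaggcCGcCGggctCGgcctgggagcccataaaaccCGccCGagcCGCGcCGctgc
ZC3H10: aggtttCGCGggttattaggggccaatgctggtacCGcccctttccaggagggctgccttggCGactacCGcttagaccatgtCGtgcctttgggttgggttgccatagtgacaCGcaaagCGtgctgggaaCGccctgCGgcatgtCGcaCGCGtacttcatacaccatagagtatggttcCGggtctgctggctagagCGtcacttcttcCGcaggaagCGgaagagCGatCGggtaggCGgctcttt
ALB: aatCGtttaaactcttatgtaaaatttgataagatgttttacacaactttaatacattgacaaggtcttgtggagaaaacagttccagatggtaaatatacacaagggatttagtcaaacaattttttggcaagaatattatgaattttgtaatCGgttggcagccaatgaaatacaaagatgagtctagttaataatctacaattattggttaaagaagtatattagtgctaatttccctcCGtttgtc
KLF5: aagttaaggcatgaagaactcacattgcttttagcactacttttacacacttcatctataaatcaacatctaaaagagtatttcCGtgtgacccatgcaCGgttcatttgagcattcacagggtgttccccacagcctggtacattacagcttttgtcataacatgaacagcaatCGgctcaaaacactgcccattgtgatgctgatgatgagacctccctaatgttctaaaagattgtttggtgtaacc
The printed stretches of COX20 and ZDHHC5 held 31 and 40 CG dinucleotides, those of FGG and ALB 2 and 3, and that of KLF5 3. Within the class with both marks, these few printed promoters thus differed widely in CG count. The shares over all promoters are given below.

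H3K27ac was mostly accompanied by H3K4me1, while H3K4me1 was mostly alone. Of the H3K27ac summits, 24753 had an H3K4me1 summit within 1 kb, a share of 65.2% (exact Clopper-Pearson 95% interval 64.8 to 65.7, counting error only), and 13193 had none. Of the H3K4me1 summits, 26309 had an H3K27ac summit within 1 kb, a share of 7.67% (7.58 to 7.76), and 316847 had none. The lists differed in density. Places within 1 kb of an H3K4me1 summit made up 18.8% of the length the list spans, and places within 1 kb of an H3K27ac summit 2.18%. Both shares with a partner were above those backgrounds. When the H3K4me1 list was limited to its highest-scoring summits, as many as the H3K27ac list holds, 33.4% of H3K27ac and 28.6% of H3K4me1 summits had a partner. Shares counted from both sides of lists of equal length come out close by construction. Across the 23 chromosomes the H3K27ac share ran from 62.0% on chromosome 20 to 73.3% on X, with a median of 64.7%, and the H3K4me1 share from 6.84% on chromosome 21 to 10.4% on chromosome 19.

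Many H3K27ac summits had their nearest H3K4me1 summit close to the 1 kb limit, so the limit decided many classes. The median distance from an H3K27ac summit to the nearest H3K4me1 summit was 681 bp. The share with a partner was 38.9% within 500 bp, 88.2% within 2 kb and 98.3% within 5 kb. The 1621 H3K27ac summits with a partner at 901 to 1000 bp had a median score of 11.7 and the 1406 at 1001 to 1100 bp one of 11.4, and 23.8% and 24.8% of them lay at gene starts. Of the 13193 H3K27ac summits without a partner, 656 had no H3K4me1 within 5 kb, so the rest had it 1 to 5 kb away.

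With partners within 1 kb, the share of summits with a partner differed by kind of place. H3K27ac at gene starts was less often accompanied by H3K4me1 than H3K27ac elsewhere. In contrast, H3K4me1 at gene starts had H3K27ac more often than H3K4me1 elsewhere. A gene start was taken as within 1 kb of the annotated start of a protein-coding gene. For the 4162 of 19974 genes with no start in the promoter table, either end was used. A distal place was taken as over 2.5 kb from every annotated gene end. The remaining places near a gene end include the flanks of these gene starts from 1 to 2.5 kb out. Of 6052 H3K27ac summits at gene starts, 54.3% (53.1 to 55.6) had H3K4me1 within 1 kb, at a median distance of 931 bp. Of 24704 distal H3K27ac summits, 67.0% (66.4 to 67.6) did, at a median of 625 bp. These intervals cover counting error only, and neighbouring summits are not independent. The order depended on the limit: within 2 kb the shares were 90.0% at gene starts and 87.5% at distal places. Among the distal ones, the share within 1 kb was 65.0% of 16122 inside genes and 70.8% of 8582 between genes.

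Distal places made up 65.1% of the H3K27ac list and 80.7% of the H3K4me1 list. Of 10380 H3K4me1 summits at gene starts, 22% had H3K27ac within 1 kb. The share was 11.2% of 55913 at the remaining places near a gene end and 6.42% of 276863 distal ones. Of the H3K27ac summits without H3K4me1, 21% lay at gene starts, and of those with it 13.3%. Of the H3K4me1 summits without H3K27ac, 81.8% were distal. As background, 36.9% of 23992 gene start positions had H3K4me1 within 1 kb and 22.6% had H3K27ac. This background is centred on the start, and the 22% on H3K4me1 summits up to 1 kb from it. The shares are therefore not like for like, and whether H3K4me1 at a start went with more H3K27ac was not tested.

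Pooled over the 15812 starts with a listed position and strand, the marks were densest at different distances from the start. The pooled counts do not give the order of the marks at single genes. H3K27ac was densest on both sides of the start, with 9.01 summits per 100 genes in the first 250 bp of the gene, 7.27 at 250 to 500 bp upstream and 4.40 in the 250 bp just upstream. H3K4me1 was lowest where H3K27ac was highest, with 2.79 summits per 100 genes in the first 250 bp, and rose to 11.4 at 1000 to 1250 bp downstream and 9.95 at 750 to 1000 bp upstream. The downstream shoulder was the broader one, with 21241 H3K4me1 summits within 5 kb downstream and 18000 within 5 kb upstream. H3K27ac had the same lean, with 5819 and 4733.

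**Figure D1:**
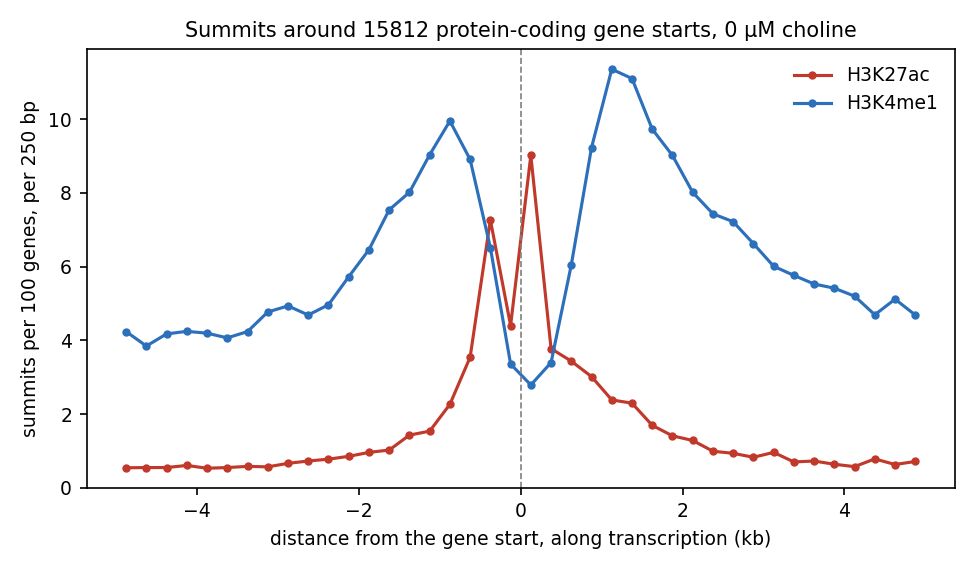
Summits per 100 genes (vertical axis, in bins of 250 bp) against the distance from 15812 protein-coding gene starts in kb along the direction of transcription (horizontal axis), for H3K27ac (red) and H3K4me1 (blue) at 0 µM choline. H3K27ac peaks at 9.01 just inside the gene, where H3K4me1 falls to 2.79 between shoulders of 9.95 and 11.4.

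At gene starts, the same arrangement was seen from the H3K27ac summits themselves. Around H3K27ac at gene starts, H3K4me1 rose from 9.63 summits per 100 within 250 bp to 26.4 at 1250 to 1500 bp, and was 13.6 in the last 250 bp before 5 kb. Around distal H3K27ac, H3K4me1 was highest within 250 bp, at 23.3 per 100, and 17.8 in the last 250 bp before 5 kb. H3K4me1 was thus sparser next to H3K27ac than farther out at starts, and moderately denser next to it at distal places.

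**Figure D2:**
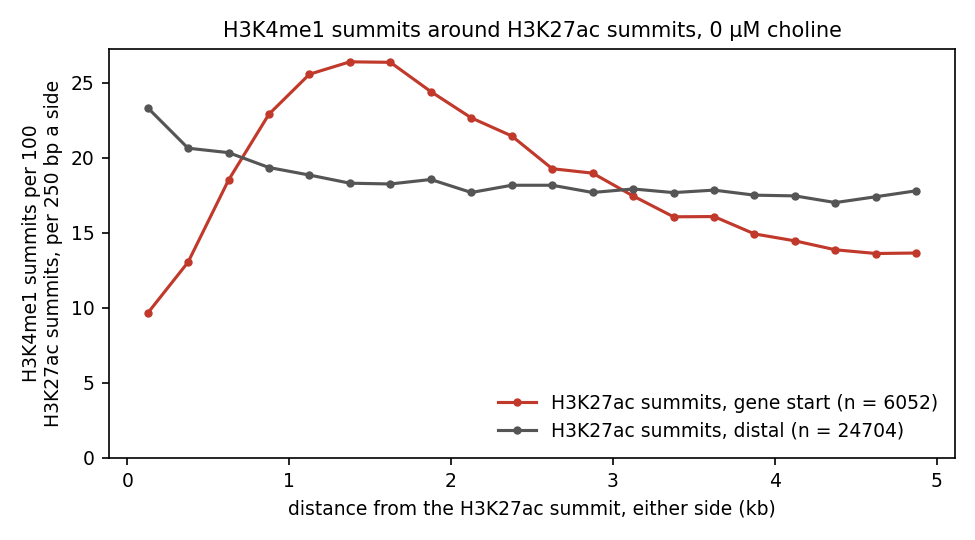
H3K4me1 summits per 100 H3K27ac summits (vertical axis, per 250 bp on each side) against the distance from the H3K27ac summit in kb (horizontal axis), for 6052 H3K27ac summits at gene starts (red) and 24704 distal ones (grey). The red line rises from 9.63 to a maximum of 26.4 beyond 1 kb, while the grey line starts at its maximum of 23.3.

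The 2 scores behaved unlike each other. Each score is the authors' own, read as −log10 of a p or q value, and is used only to rank summits within its own list. H3K27ac scores ran from 5.01 to 210 with a median of 10.9, and the share with H3K4me1 was 62.7% to 67.1% in every decile of the list, with no rise from weak to strong. H3K4me1 scores ran from 1.31 to 15025 with a median of 3.48, and the share with H3K27ac rose in every step from 1.86% in the lowest-scoring decile to 29.9% in the highest. The median H3K4me1 score was 7.41 (quartiles 4.33 and 13.2) where H3K27ac lay within 1 kb and 3.48 (2.54 and 5.34) where it did not. The median H3K27ac score was 10.9 with or without H3K4me1. The part of the different lowest scores of the lists in this contrast was not tested.

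**Figure D3:**
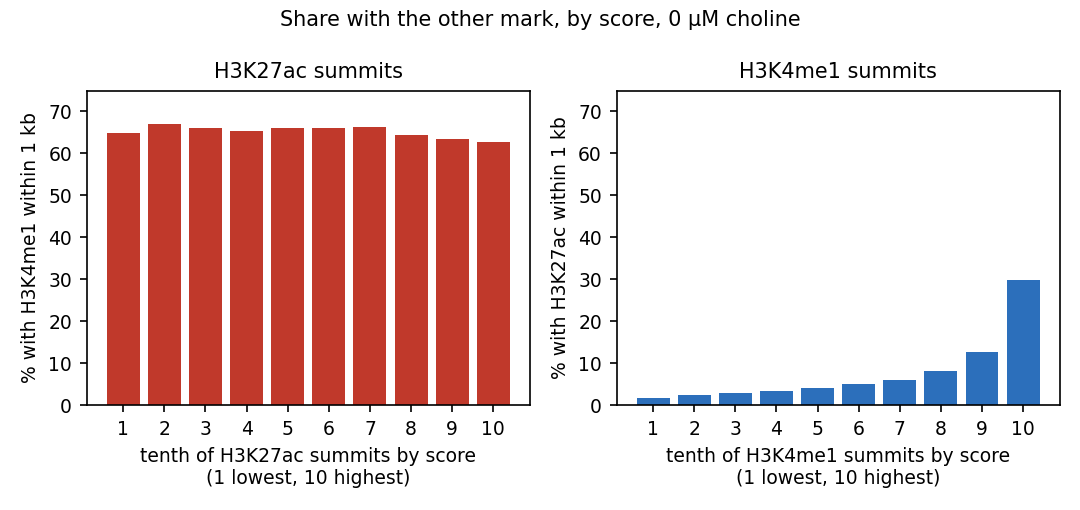
Share of summits with the other mark within 1 kb (vertical axis, %) in each decile of the list by score (horizontal axis, 1 lowest and 10 highest), for H3K27ac summits (left, red) and H3K4me1 summits (right, blue) at 0 µM choline. The H3K27ac bars stay between 62.7% and 67.1%, and the H3K4me1 bars climb from 1.86% to 29.9%.

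High-scoring H3K4me1 accompanied distal H3K27ac more often than H3K27ac at gene starts. When only H3K4me1 summits with a score of at least 10 counted as partners, 37.9% of distal H3K27ac summits kept one and 5.93% of those at gene starts did. At a score of at least 5 the shares were 56.6% and 25.4%, and at a score of at least 20 they were 9.46% and 0.909%. At gene starts 1537 of the 3288 H3K27ac summits with a partner still had one at a score of at least 5, and 359 did at a score of at least 10.

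Clusters of H3K4me1 met H3K27ac more often than single summits. H3K4me1 summits at most 3 kb apart were joined into runs, and 3.74% of 86678 runs of 1 summit had H3K27ac within 1 kb of a member. The share was 9.31% of 30608 runs of 2, 19.9% of 30445 runs of 3 to 5, 38.7% of 8493 runs of 6 to 10, and 57.8% of 1546 runs of 11 to 20. A longer run covers more length, so its share rises in part by construction. Of 86 runs of more than 20 summits, 53 had H3K27ac, and some of the longest without it are named after their values were seen. One of 47 summits over 64.7 kb lay in SRPK2, which encodes a kinase of splicing factors, one of 35 summits lay in WWC2 and one of 33 in SCAF8. A run of 32 summits lay in PTK2, which encodes focal adhesion kinase, and one of 31 in LPP.

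At the level of genes, the H3K4me1-only class was the largest of the marked classes. A gene had both marks when an H3K27ac summit within 1 kb of its start had an H3K4me1 partner within 1 kb of that summit, H3K27ac only when none there had a partner, and H3K4me1 only when H3K4me1 was at the start with no H3K27ac near either. H3K27ac only does not mean that H3K4me1 was absent from the start. In that class, 17.8% of the genes had an H3K4me1 summit within 1 kb of the start but over 1 kb from the H3K27ac. Nor does both marks mean that H3K4me1 lay within 1 kb of the start, since 71.9% of those genes had it there. The others, APOE, SREBF1, BHMT2 and ATF4 among them, had it within 1 kb of the H3K27ac but farther from the start. Of 19974 protein-coding genes, 3173 (15.9%) had both marks, 2259 (11.3%) H3K27ac only, 5658 (28.3%) H3K4me1 only, 8793 (44.0%) neither, and 91 were unclear. A total of 27.2% had any H3K27ac at the start and 42.2% any H3K4me1. These shares are the background for every count of genes below. With lists of equal length, 431 genes had both marks, 5001 H3K27ac only and 347 H3K4me1 only, so the order of the classes depends on the length of the H3K4me1 list.

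The 2 classes with H3K27ac resembled each other beyond the start. For genes with both marks, the median number of summits within 50 kb of either gene end was 5 H3K27ac and 28 H3K4me1. For genes with H3K27ac only it was 4 and 26. Genes with H3K4me1 only had medians of 1 and 22, genes with neither 0 and 12, and all genes 2 and 20. The class rule itself removes H3K4me1 from around the H3K27ac of the H3K27ac-only genes. By that choice their H3K4me1 density peaked farther out, at 16.1 summits per 100 genes at 1500 to 1750 bp downstream, against 21.9 at 1000 to 1250 bp for genes with both marks. With partners allowed within 2 kb, 79.4% of the H3K27ac-only genes had both marks, and within 5 kb 96.5% did. No H3K27ac within 50 kb was found for 35.0% of all genes, and no H3K4me1 for 1.88%.

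Promoter sequence separated the genes with H3K27ac from the rest more than it separated the 2 H3K27ac classes. In the 300 bases from 250 before to 50 after the start, the median number of CG dinucleotides was 26 in genes with both marks, 27 with H3K27ac only, 22 with H3K4me1 only and 15 with neither, against 22 over all 15812 promoters. At least 10 were present in 91.0%, 95.4%, 75.6% and 58.4% of these classes, against 73.0% of all. Across promoters binned by CG count, the share of genes with both marks rose from 4.72% at 0 to 4 to 24.5% at 20 to 24, and that with H3K27ac only from 1.22% to 16.4%. The share with H3K4me1 only stayed between 21.9% and 30.2% in every bin. ALB, FGG and KLF5, printed above, are exceptions, with 4 CG dinucleotides in the 300 bases at the listed start of each. Only the listed start of a gene was read, so any other promoter of these genes was not counted.

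Short motifs were counted on both strands of the same 300 bases. The GC box GGGCGG, the core bound by SP and KLF factors, was in 70.0% of promoters with both marks, 71.8% with H3K27ac only, 61.9% with H3K4me1 only and 48.3% with neither, against 58.5% of all. The ETS core CCGGAAG was in 23.9%, 22.1%, 13.6% and 8.66%, against 14.2%. TATAAA went the other way, in 5.86%, 6.07%, 7.92% and 13.1%, against 9.64%. CCAAT was in 35.6% to 38% of the promoters of the 3 marked classes and 36.2% of those with neither mark, against 36.3% of all. Its share thus differed little by class. GGGCGG holds a CG and CCGGAAG holds one too, so their shares move with the CG count. A match is a description of the letters and not of a bound site.

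By score, the leading genes with both marks were COX20, ZDHHC5, ASPRV1, ZNF444, MGST2, INHBE, TMBIM1 and FGL1, with top H3K27ac scores of 105 to 74.7. COX20 encodes an assembly factor of cytochrome c oxidase, and it had 2 H3K27ac summits at its start, 1 of them with a partner, and 1 H3K4me1 summit of score 2.65. ZDHHC5 encodes a palmitoyltransferase, and its H3K27ac summit at -511 bp had a score of 94.2. INHBE, which encodes a liver-secreted inhibin beta chain, had 3 H3K27ac and 2 H3K4me1 summits at its ends and 8 H3K27ac within 50 kb, 6 of them with a partner. FGL1, which encodes a fibrinogen-like protein secreted by hepatocytes, had 13 H3K27ac summits within 50 kb, 12 of them with a partner.

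Among the leading genes with H3K27ac only were FGG, ATP6V1A, RBM39, SMC2, TRIP12, HNRNPUL2 and HMGCS1, with scores of 98.6 to 67.2. Most have broad cellular functions, and FGG, the gamma chain of fibrinogen, is the hepatocyte gene among them. FGG had an H3K27ac summit of score 98.6 at -175 bp, and its nearest H3K4me1 summit was at -2613 bp. SMC2, a condensin subunit, had 1 H3K27ac summit, at -122 bp and with a score of 74.7, and it was the only one within 50 kb. HMGCS1, the cytosolic HMG-CoA synthase of the sterol pathway, had its nearest H3K27ac at 148 bp and its nearest H3K4me1 at -1898 bp. Each of these genes had both marks when partners were allowed within 5 kb.

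Among the leading genes with H3K4me1 only were AVPR1B, LRRC24, ZC3H10, CAPRIN2, CSNK1D, CPT1A and VNN2. The first 3 had top H3K4me1 scores of 4719, 937 and 495, and CAPRIN2, the next, one of 31.4. Among all H3K4me1 summits, 46 had scores above 158, the highest score of the 15 µM list. Of these 46, 5 had H3K27ac within 1 kb, 14 had a 15 µM H3K4me1 summit within 1 kb, and the median number of other H3K4me1 summits within 5 kb was 1.5. Whether they mark H3K4me1 at all was not tested. Without them AVPR1B and LRRC24 had neither mark, while ZC3H10, CAPRIN2, CSNK1D, CPT1A and VNN2 stayed in the H3K4me1-only class. CPT1A, the carnitine palmitoyltransferase that admits fatty acids to liver mitochondria, had H3K4me1 at -110 bp with a score of 25.4, 20 H3K4me1 summits within 50 kb and 0 H3K27ac summits there. VNN2, which encodes a vanin pantetheinase, had H3K4me1 at -808 bp and 23 H3K27ac summits within 50 kb, 17 of them with a partner. The class at the start thus did not tell how much H3K27ac lay around the gene.

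Counted within 50 kb of either gene end, H3K27ac with H3K4me1 was richest at GPC3, NRP1, TLE1, ATP9A, ELL2 and RPS6KA3. GPC3, which encodes glypican-3, an oncofetal surface protein of hepatocellular carcinoma, had 40 H3K27ac summits, 30 of them with a partner, and 57 H3K4me1 summits. NRP1, a co-receptor for semaphorins and VEGF, had 27 of 36 with a partner and neither mark within 1 kb of its ends. ATP9A had a partner for 26 of 28. A longer gene has a wider window until the windows at its ends no longer overlap. GPC3 spans chrX:133535745-133985594 on GRCh38.p14, so the middle of this gene was not counted.

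The genes richest in H3K27ac without a partner were ACTN4, MEGF9, EGFR, LGR4, TRIM71 and UPB1. ACTN4, an alpha-actinin that crosslinks actin, had 33 of 45 H3K27ac summits without H3K4me1 within 1 kb, yet 39 H3K4me1 summits lay in its window. EGFR, the epidermal growth factor receptor, had 23 of 36 without and 50 H3K4me1 summits. TRIM71, a developmental ubiquitin ligase, had 21 of 27 without and 44 H3K4me1 summits. These windows therefore held both marks, with most H3K27ac summits over 1 kb from H3K4me1.

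The genes with the most H3K4me1 and 0 H3K27ac summits in their windows were MRPS28 with 65, ATOH8 with 60, PTGFRN with 59, CYTH3 with 58, and CCDC85C and PARD3B with 56 each. The median over all genes was 20. The middle of a long gene such as PARD3B lay outside the window and was not counted. Of these 6, MRPS28, CYTH3 and PARD3B had H3K4me1 within 1 kb of the start, with top scores of 2.11, 3.57 and 4.70.

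Distal places gave the highest H3K27ac scores of the list, although the median score was 12.6 at gene starts and 10.9 at distal places. The 6 highest with H3K4me1 had scores of 171 to 139 and were nearest to LGSN, CTNND1, RPS6KA3, CMSS1, APOO and BBOX1. The summit in CTNND1, which encodes p120 catenin, lay 99 bp from H3K4me1, and that near RPS6KA3 lay 893 bp from it and 95991 bp from the gene. The 6 highest without H3K4me1 had scores of 210 to 138 and were nearest to AFP, B4GAT1, NUBPL, CYP3A7-CYP3A51P, ALDH1A1 and JAGN1. Their nearest H3K4me1 lay 1099 to 1812 bp away, with 5 to 9 H3K4me1 summits within 10 kb of each. Each of these places thus had H3K4me1 nearby but past the 1 kb limit.

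The top H3K27ac summit of the list, with a score of 210, lay 3638 bp before AFP, at position 73432583 of chromosome 4. AFP encodes alpha-fetoprotein, the fetal serum protein that many hepatocellular carcinomas make again. The start of AFP itself had neither mark within 1 kb, with the nearest H3K4me1 at -1826 bp. Within 50 kb of AFP there were 18 H3K27ac summits, 14 with a partner, and 41 H3K4me1 summits.

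Distal H3K4me1 summits without H3K27ac were led by places nearest to FAT1, PDIA4, ZNF121, SOCS4, CBLL1 and MTMR12. Their scores of 15025 to 663 all exceeded the 15 µM maximum of 158, and 1 to 7 H3K4me1 summits lay within 10 kb of each. They belong to the 46 summits described above, whereas the median score of all H3K4me1 summits without H3K27ac was 3.48.

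Both marks together were the commonest pattern among hepatocyte genes, though not that of most of them. Of 35 genes for secreted plasma proteins and liver metabolism, 14 had both, 4 H3K27ac only, 7 H3K4me1 only, 2 were unclear and 8 had neither. H3K27ac was at the start of 18 (51.4%), against 27.2% of all genes, and the median window held 9 H3K27ac and 30 H3K4me1 summits, against 2 and 20. APOA1 and APOC3, apolipoproteins that are neighbours on chromosome 11 and share their windows, and APOE, the ligand by which lipoprotein remnants are cleared, had both marks. ALB, the albumin gene, had H3K27ac only: its H3K27ac summit at -68 bp had a score of 60.6, and its nearest H3K4me1 lay at 4272 bp. In the wider ALB window, 13 of 24 H3K27ac summits had a partner. APOA2 had H3K4me1 only, at 803 bp, and its nearest H3K27ac lay at -1966 bp.

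Liver transcription factors had H3K27ac at the start more often, and without H3K4me1 as often as with it. Of 26, 9 had both marks, 9 H3K27ac only, 2 H3K4me1 only and 6 neither, so that 69.2% had H3K27ac. HNF4A, a nuclear receptor that maintains hepatocyte identity, had H3K27ac at 124 bp with a score of 26.3, H3K4me1 at -731 bp, and 82 H3K4me1 and 30 H3K27ac summits within 50 kb. FOXA1 and ONECUT1 were among those with neither. FOXA1, a pioneer factor, had H3K27ac at -1403 bp and H3K4me1 at -1517 bp, and ONECUT1 at 1660 and -1396 bp. For both, the marks lay outside the 1 kb zone and within 2 kb.

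**Figure D4:**
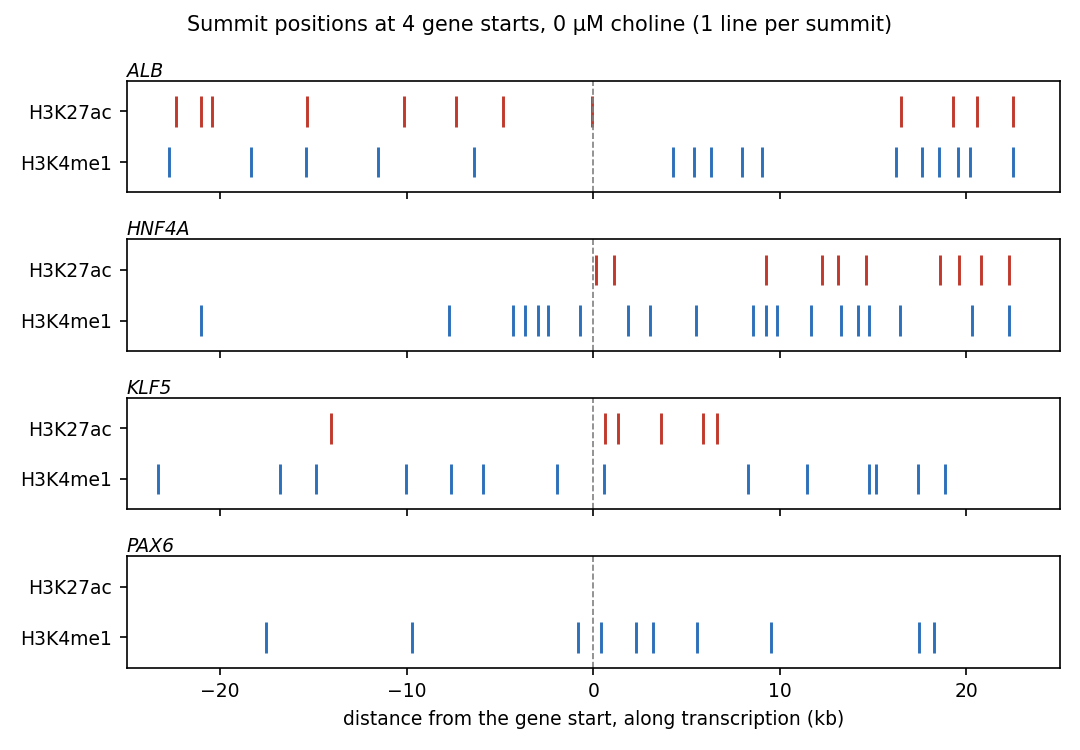
Positions of H3K27ac (red) and H3K4me1 (blue) summits at 0 µM choline, 1 line per summit, against the distance from the gene start in kb along transcription (horizontal axis) for ALB, HNF4A, KLF5 and PAX6. ALB has H3K27ac at the start with its nearest H3K4me1 at 4272 bp, HNF4A and KLF5 have both marks near the start, and PAX6 has H3K4me1 and no H3K27ac.

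KLF5, a zinc finger transcription factor of proliferating epithelia at chr13:73054976-73077538 on GRCh38.p14, had both marks. Its H3K27ac summit lay at 630 bp with a score of 10.7 and its H3K4me1 summit at 575 bp with a score of 22.7, both inside the gene. Within 50 kb there were 6 H3K27ac summits, 3 with a partner, and 30 H3K4me1 summits. The gene kept both marks under each partner distance and score limit tried, and had neither when the start zone was 500 bp. Among 17 KLF and SP factors, which bind GC-rich boxes, 4 had both marks, 5 H3K27ac only, 3 H3K4me1 only and 5 neither. KLF6 had an H3K27ac summit of score 21.5 at -774 bp without H3K4me1, while KLF2 had H3K4me1 only at -653 bp and 0 H3K27ac summits among 28 H3K4me1 summits in its window. KLF4 had neither mark at the start, and 22 H3K4me1 and 0 H3K27ac summits around it.

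Of 16 genes of choline uptake and phosphatidylcholine synthesis, 8 had both marks, against 15.9% of all genes, 1 H3K27ac only, 3 H3K4me1 only and 4 neither. CHKA and CHKB, the choline kinases that open the CDP-choline pathway, carried H3K27ac and H3K4me1, CHKA with scores of 31.3 for H3K27ac and 20.9 for H3K4me1 and 15 of 22 H3K27ac summits with a partner. CHPT1, the last enzyme of that pathway, had both marks too. Other enzymes of the list, named after their values were seen, did not: PCYT1A, which makes CDP-choline, had H3K27ac only, PCYT1B and PLD2 had H3K4me1 only, and LPCAT1 had neither. None of the 4 SLC44A choline transporter-like genes had H3K27ac within 1 kb of the start: SLC44A1 had it at 1700 bp with 72 H3K4me1 summits in its window, SLC44A2 had neither mark, SLC44A3 had H3K4me1 only at 623 bp, and SLC44A4, named after its values were seen, had neither.

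Betaine, made from choline by CHDH, passes methyl groups to the methionine cycle. Of 19 genes of that branch, 8 had both marks, 3 H3K27ac only, 6 H3K4me1 only and 2 neither. CHDH had both, with an H3K27ac score of 7.45, as had BHMT2 and SARDH, while BHMT, the main betaine-homocysteine methyltransferase of liver, had H3K4me1 only at -531 bp. ALDH7A1, which can oxidise betaine aldehyde, had H3K27ac only.

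Of the 18 lists, sterol and fatty acid synthesis had the highest share of genes with both marks, 11 of 19, with 4 H3K27ac only, 1 H3K4me1 only and 3 neither. SREBF1 and SREBF2, the transcription factors of the pathway, and SCAP, their escort protein, had both marks. INSIG2, which retains SCAP in the endoplasmic reticulum, had neither, with 14 H3K4me1 and 0 H3K27ac summits around it. The amino acid and ER stress list followed with 9 of 16 with both marks, ATF4, DDIT3 and ATF6 among them. HSPA5, the ER chaperone BiP, had neither within 1 kb, with H3K4me1 at -1217 bp.

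Genes expressed in most cells had H3K27ac but more often without H3K4me1. Of 20 ubiquitous genes, 15 had H3K27ac at the start, 6 with a partner and 9 without, and 2 had H3K4me1 only. Among the 9, named after their values were seen, TUBB and PPIA had H3K4me1 within 1 kb of the start, at -735 and -829 bp. GAPDH had H3K27ac at -105 bp and its nearest H3K4me1 at -3063 bp. ACTB had both, with a top H3K4me1 score of 277 that is among the 46 very high ones. The enzymes that write, erase and read these marks had 5 with both, 7 H3K27ac only, 4 H3K4me1 only and 4 neither of 20. EP300 and KMT2C, writers of H3K27ac and of H3K4me1, had H3K27ac only, and CREBBP had H3K4me1 only.

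The remaining lists of expressed or inducible genes were mixed. YAP and TEAD targets had 3 with both, 5 H3K27ac only, 2 H3K4me1 only and 4 neither of 14, with CCN2 in the H3K27ac-only class and ANKRD1 among those with both. Immediate early and inflammation genes had 7, 4, 3 and 6 of 20, with JUNB and JUND among those with both and FOS with H3K27ac only. Cell cycle genes had 4, 4, 6 and 4 of 18, with CCND1 having both and CCNE1, CCNE2 and CDK4 H3K4me1 only. Biliary and progenitor markers had 2, 2, 6 and 2 of 12, with KRT19, KRT7 and SPP1 having H3K4me1 only and SOX9 H3K27ac only.

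Developmental transcription factors had little H3K27ac, and most of them had neither mark at the start. Of 40, 16 had H3K4me1 only, against 28.3% of all genes, 21 had neither, 2 had both and 1 had H3K27ac only. HOXC10 and ALX1, named after their values were seen, were among those with H3K27ac. No H3K27ac lay within 50 kb of 31 of the 40, against 35.0% of all genes, and the median window held 12 H3K4me1 summits, against 20 over all genes. HOXA13, a patterning factor of limb and hindgut, had H3K4me1 at -11 bp, 45 H3K4me1 summits and 0 H3K27ac summits in its window. PAX6, an eye and brain regulator drawn in the map of 4 loci, had its nearest H3K4me1 at 417 bp, with 13 H3K4me1 and 0 H3K27ac summits within 50 kb. HOXA2 and HOXA9 had H3K4me1 only as well, with 12 and 8 H3K27ac summits elsewhere in their windows.

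Genes of other tissues had little H3K27ac at the start, while their H3K4me1 varied by list. Blood cell markers had 5 H3K4me1 only, 9 neither and 1 both of 15, stellate, fibroblast and endothelial markers 4, 9 and 1 of 15 with 1 unclear, and neuron and muscle markers 3, 12 and 0 of 16 with 1 H3K27ac only. The H3K4me1-only shares of these lists were 33.3%, 26.7% and 18.8%, against 28.3% of all genes, and their median windows held 18, 18 and 13.5 H3K4me1 summits, against 20. The genes with H3K27ac among them, named after their values were seen, were LYZ, PECAM1 and SNAP25. Olfactory receptors, 15 of 16 with neither mark, had a median of 2 H3K4me1 summits within 50 kb.

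**Figure D5:**
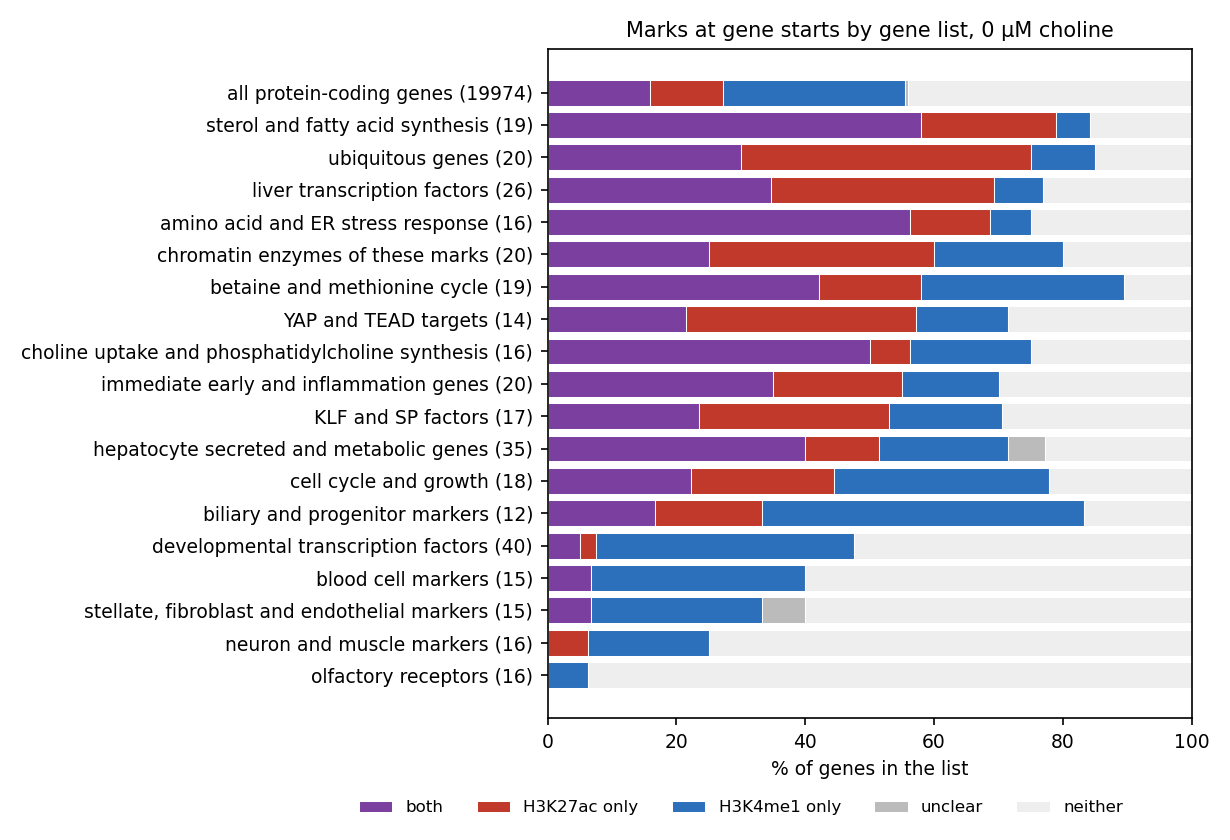
Share of the genes of each list (horizontal axis, %) with both marks (purple), H3K27ac only (red), H3K4me1 only (blue), an unclear pattern (dark grey) or neither mark (light grey) at the start at 0 µM choline, with the number of genes in parentheses and all 19974 genes as the top bar. Sterol and fatty acid genes have both marks in 11 of 19, ubiquitous genes H3K27ac only in 9 of 20, and developmental transcription factors H3K4me1 only in 16 of 40.

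Starts of long non-coding RNA genes carried fewer marks. Of 11383, 872 (7.66%) had both, 555 (4.88%) H3K27ac only and 2696 (23.7%) H3K4me1 only. Among the 8889 that lay over 2.5 kb from every protein-coding start, 358 had both, 147 H3K27ac only and 2019 H3K4me1 only. Away from protein-coding starts, H3K4me1 only made up a larger part of the marked starts.

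The same measures at 15 µM choline, from another library of each mark, are given side by side with no test. Of 29305 H3K27ac summits at 15 µM, 58.5% had H3K4me1 within 1 kb. The share was 53.3% at gene starts, 60.9% at the remaining places near a gene end and 58.7% at distal places. Of 349202 H3K4me1 summits at 15 µM, 4.82% had H3K27ac. Without choline the 3 H3K27ac shares by place were 54.3%, 68.2% and 67.0%, so the share with a partner differed least at gene starts. The amount of listed H3K27ac did differ there. Gene starts held 6052 of its summits without choline but 3238 with it. Distal places held 24704 but 20567, and the remaining places near a gene end 7190 but 5500. Of the gene start positions, 22.6% had H3K27ac within 1 kb without choline, against 12.7% with it.

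How the 0 µM classes looked at 15 µM differed between the marks. Of H3K27ac summits with H3K4me1, 51.6% had a 15 µM H3K27ac summit within 1 kb, and of those without 53.1%. Of H3K4me1 summits with H3K27ac, 74.1% had a 15 µM H3K4me1 summit within 1 kb and 45.4% a 15 µM H3K27ac summit. Of H3K4me1 summits without H3K27ac, 61.3% had H3K4me1 and 2.39% H3K27ac there. Having a partner at 0 µM went with little difference in whether H3K27ac was listed again.

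Over all 19974 protein-coding genes at 15 µM, 8.60% had both marks, 6.60% H3K27ac only, 34.7% H3K4me1 only and 49.8% neither. These shares are the background for the gene counts that follow. By gene, 973 of the 3173 with both marks at 0 µM (30.7%) had both at 15 µM, and 884 (27.9%) had H3K4me1 only. Of the 2259 with H3K27ac only, 546 (24.2%) had the same class, 451 both marks and 754 (33.4%) neither. Of the 5658 with H3K4me1 only, 3397 (60.0%) kept that class and 161 (2.85%) had both marks. ALB had both marks at 15 µM, KLF5 and HNF4A both marks at either dose, and CHDH both at 0 µM and neither at 15 µM. The H3K27ac list at 15 µM was shorter, and the part of dose, depth and peak calling in these differences cannot be told apart.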

How the data were processed

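Huh7 cells were analysed through 4 deposited summit lists, 1 for H3K27ac and 1 for H3K4me1 at 0 and at 15 µM choline, with groups taken from the titles in the labels. Reads had been processed with tools that include Bowtie, Picard, deepTools and MACS2, on hg38, per the submitters' processing notes, which give no versions. How the input was used, and the settings of the peak calling, are not given in the sources used here. Each value per summit in the files the authors deposited was taken as the −log10 of the p-value or the q-value of the summit, either of which MACS2 can write there. No read counts were used, so the depth of each library is unknown. The lists began at scores of 5.01 for H3K27ac and 1.31 for H3K4me1. ChIP-seq fragments of 250 to 500 bp, per the labels' protocols, limit how exactly a summit is placed.

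Only summits of chromosomes 1 to 22 and X entered the map, 37946 of 37984 for H3K27ac and 343156 of 343578 for H3K4me1 at 0 µM. Genes and ends came from RefSeq on GRCh38.p14, the assembly of hg38, and strand-aware starts from the promoter table, which matched 15812 of 19974 protein-coding genes. Either annotated end stood in for the other 4162. Distances were computed with Python 3.11.15, NumPy 2.4.6, pandas 2.3.3 and SciPy 1.17.1, tested on simulated data. Exact Clopper-Pearson 95% intervals cover counting error only, and neighbouring summits and genes are not independent. With 1 library per mark and dose no test was made, and the labels do not say whether the marks were taken from the same culture.

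The members and the 18 gene lists were chosen with earlier results of these data known. The text names genes by rule, skipping any within 200 kb of one taken: the 8 highest-scoring genes of each class, the nearest genes of the 6 highest-scoring distal summits of each kind, the 6 genes with the most summits of each kind within 50 kb, up to 3 members of each list in and outside its commonest class, and KLF5. Some genes that the rule takes are not reported here. Alternatives changed the partner distance, the score limits, the list length, the zone around the start and the choice of gene end, and joined summits closer than 1 kb.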

Additional observations from a re-analysis of the deposited data

Results flagged for a closer look

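Summits outside chromosomes 1 to 22 and X were not part of the map. At 0 µM choline 35 H3K27ac summits and 399 H3K4me1 summits lay on unplaced contigs, above the 3 that a count of 0 would allow. They lay on 7 and 42 contigs, and the 15 µM lists held 26 and 398. The 0 µM H3K4me1 list also held 1 mitochondrial summit, with a score of 911. These summits were left out of every count above.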

How the results depend on the processing

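The counts depend most on the partner distance and on how much of the H3K4me1 list is used. With partners within 500 bp, 14764 H3K27ac summits had and 23182 lacked H3K4me1, 14890 H3K4me1 summits had H3K27ac, and 1375 genes had both marks and 4057 H3K27ac only. Within 2 kb, 4493 H3K27ac summits lacked H3K4me1, 43336 H3K4me1 summits had H3K27ac, and the genes were 4967 and 465. Within 5 kb, 37290 H3K27ac summits had and 656 lacked H3K4me1, 75427 H3K4me1 summits had H3K27ac, and the genes were 5352 and 80. With H3K4me1 scores of at least 5, 89971 H3K4me1 summits lacked H3K27ac, and 1509 genes had both, 3923 H3K27ac only and 1744 H3K4me1 only. At a score of at least 10 the H3K27ac counts were 11683 with and 26263 without, the H3K4me1 counts 9935 with and 22757 without, and the genes 343, 5089 and 278. With lists of equal length they were 12656 and 25290, 10837 and 27109, and 431, 5001 and 347. With H3K27ac scores of at least 10, 14029 had and 7641 lacked H3K4me1, shares of 64.7% and 35.3%, and 15663 H3K4me1 summits had H3K27ac. Within 500 bp of the start, 2767 genes had H3K4me1 only. Of 147 genes named by rule, 89 to 133 kept their class under each setting that changed a distance, a score limit or the gene end, fewest with lists of equal length and with H3K4me1 scores of at least 10. Fewer summits or a narrower zone are counted under these settings by construction. All other counts under these and the remaining alternatives stayed within 1.5 times the reported ones, among them joining close summits and taking either gene end. The 2 added settings, using listed starts only and leaving out H3K4me1 scores above the 15 µM maximum, were chosen after seeing the data, and both also stayed within 1.5 times.

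No paired analysis was possible because no result comes from a test and each mark and dose had 1 library.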
